A study of Mus musculus with 8 samples.

Results

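The genes described are the collagen genes outside type IV, taken as every row of the count table whose gene name is Col, a number, the letter a and a number, without the names that start with Col4a. The rule found 38 genes among the 34299 rows of the table, and 36 of them had enough counts to be tested between the genotypes. Whole mouse brain was sequenced as poly-A selected RNA in 3 groups. The first was wild type at gestation day 15 (WT day 15, n = 3), the second was Cav1 knockout at gestation day 15 (KO day 15, n = 3), and the third was Cav1 knockout at week 70 (KO week 70, n = 2). Cav1 encodes caveolin 1, the coat protein of caveolae. The labels give 3 biological replicates for each fetal group, do not say what separates the week 70 replicates, and name no strain, litter, sex or pooling. Wild-type brain at week 70 was not analysed here, so age was compared only within the knockout.

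Collagens are secreted or membrane proteins in which 3 chains wind into a triple helix. Fibrillar collagens form the cross-banded fibrils of connective tissue, cartilage collagens the thinner fibrils of hyaline cartilage and the FACIT molecules on their surface, network collagens beaded filaments, anchoring fibrils and hexagonal lattices, and transmembrane collagens span the plasma membrane. In brain, fibrillar and type VI collagens are made mainly by the meninges and by fibroblasts and mural cells along vessels, whereas some transmembrane and FACIT collagens are made by neurons. The 38 genes fell into 7 fibrillar, 8 cartilage, 10 network, 6 other FACIT, 4 transmembrane and 2 multiplexin genes, plus Col26a1, which belongs to none of these classes.

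The promoters of 4 members are shown because their classes moved differently in the comparisons that follow: a fibrillar, a cartilage, a network and a transmembrane collagen. Each stretch is the 150 bases before the RefSeq gene start, from 5′ to 3′ on the gene's strand, in build GRCm38.p6, and none overlaps an exon of the GENCODE M21 annotation. Capitals mark 3 motifs searched on both strands: the CCAAT box, the GC box spelled GGGCGG, and CCTCCC, a pyrimidine-rich element known from collagen promoters. On the other strand these read ATTGG for the first, CCGCCC for the second and GGGAGG for the third. Matches of GGGCGG and CCTCCC can lie side by side in 1 run of capitals, as they do in Col25a1. The sequences are on chr1:45311388-45311537 (+), chr3:114030390-114030539 (+), chr16:57754738-57754887 (−) and chr3:130180695-130180844 (+), in that order. The first 3 end at the GENCODE start of the gene, whereas the Col25a1 window precedes a RefSeq start inside the GENCODE gene, which begins at 130131501.
Col3a1: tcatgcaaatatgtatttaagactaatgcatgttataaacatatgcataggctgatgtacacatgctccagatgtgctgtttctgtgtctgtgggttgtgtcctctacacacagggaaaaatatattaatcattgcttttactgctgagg
Col11a1: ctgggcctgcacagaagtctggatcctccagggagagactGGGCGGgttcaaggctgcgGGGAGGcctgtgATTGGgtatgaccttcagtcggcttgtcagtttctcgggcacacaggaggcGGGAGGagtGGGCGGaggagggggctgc
Col8a1: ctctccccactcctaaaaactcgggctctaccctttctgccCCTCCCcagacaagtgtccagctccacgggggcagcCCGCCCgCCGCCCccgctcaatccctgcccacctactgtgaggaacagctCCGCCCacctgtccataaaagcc
Col25a1: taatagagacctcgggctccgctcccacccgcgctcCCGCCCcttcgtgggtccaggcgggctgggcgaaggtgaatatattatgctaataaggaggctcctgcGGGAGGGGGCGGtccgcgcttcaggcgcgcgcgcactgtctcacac

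The Col3a1 window held none of the 3 motifs and had a GC content of 37.3%, whereas the other 3 windows had a GC content of 64.7% to 66.0%. Col11a1 held 2 GGGCGG, 2 CCTCCC and 1 CCAAT match, Col8a1 3 GGGCGG and 1 CCTCCC, and Col25a1 2 GGGCGG and 1 CCTCCC. RefSeq promoters were matched for 30 of the 38 collagen genes, with 33 windows in all. CCTCCC was in 63.6% of these windows against 28.7% of all 32851 promoter windows of the same length, GGGCGG in 48.5% against 28.6%, and CCAAT in 18.2% against 24.5%. The motifs were chosen with these sequences in view, and a match is a description of the letters only.

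Total counts per library were 19414747 to 20833397 in WT day 15, 14110031 to 15245283 in KO day 15 and 18924304 to 20203233 in KO week 70, so depth separated the fetal genotypes. Cav1 had 218 to 367 counts in the wild-type libraries and 0 to 5 in the 5 knockout libraries, as the labels state. Neuronal markers summed to 5519 to 9094 counts per 1000000 (CPM) and all 10 were detected in every library, in a check of the labelled tissue. All 6 fetal libraries had at least 54531 counts of Xist and at most 4 of 4 Y-linked genes, whereas 1 week 70 library had 7969 Xist counts and the other 2219 Y-linked counts, so the week 70 replicates differ in sex markers. CPM values are relative to the library total after TMM scaling. In bulk tissue, fewer cells of a type and less RNA per cell cannot be told apart.

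WT day 15 replicate 1 stood apart in the fibrillar, cartilage, network and FACIT classes. Most genotype results for collagen genes are therefore given with and without it. Log2 fold changes of other single genes are with all libraries unless stated. Collagen genes took 0.674% of its counts (95% exact binomial interval 0.671% to 0.678%), against 0.0876% and 0.121% in WT replicates 2 and 3. Their share was 0.0440%, 0.0510% and 0.0416% in KO replicates 1 to 3 at day 15, and 0.0189% and 0.0264% at week 70. The intervals cover counting error only. Of the 36 tested members, 23 (63.9%) were at least 2-fold higher in WT replicate 1 than in the mean of the other WT libraries, against 2.48% of all 19147 tested genes. All 7 fibrillar and all 7 tested cartilage genes were among them, with 6 of 10 network and 3 of 6 FACIT genes, and no transmembrane or multiplexin gene was. Markers of skeletal tissue were high in the same library. Matn1, a cartilage matrix protein, had 626 counts there against 1 and 0 in the other WT libraries, and Ibsp, a bone sialoprotein, had 1904 against 9 and 7. The summed level of 10 skeletal muscle markers was 47.0 CPM against 7.99 and 7.34, that of 14 meningeal and fibroblast markers 401 against 162 and 205, and that of 10 neuronal markers 6586 against 7254 and 7218. The part of these cells in the collagen values was not tested.

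**Figure D1:**
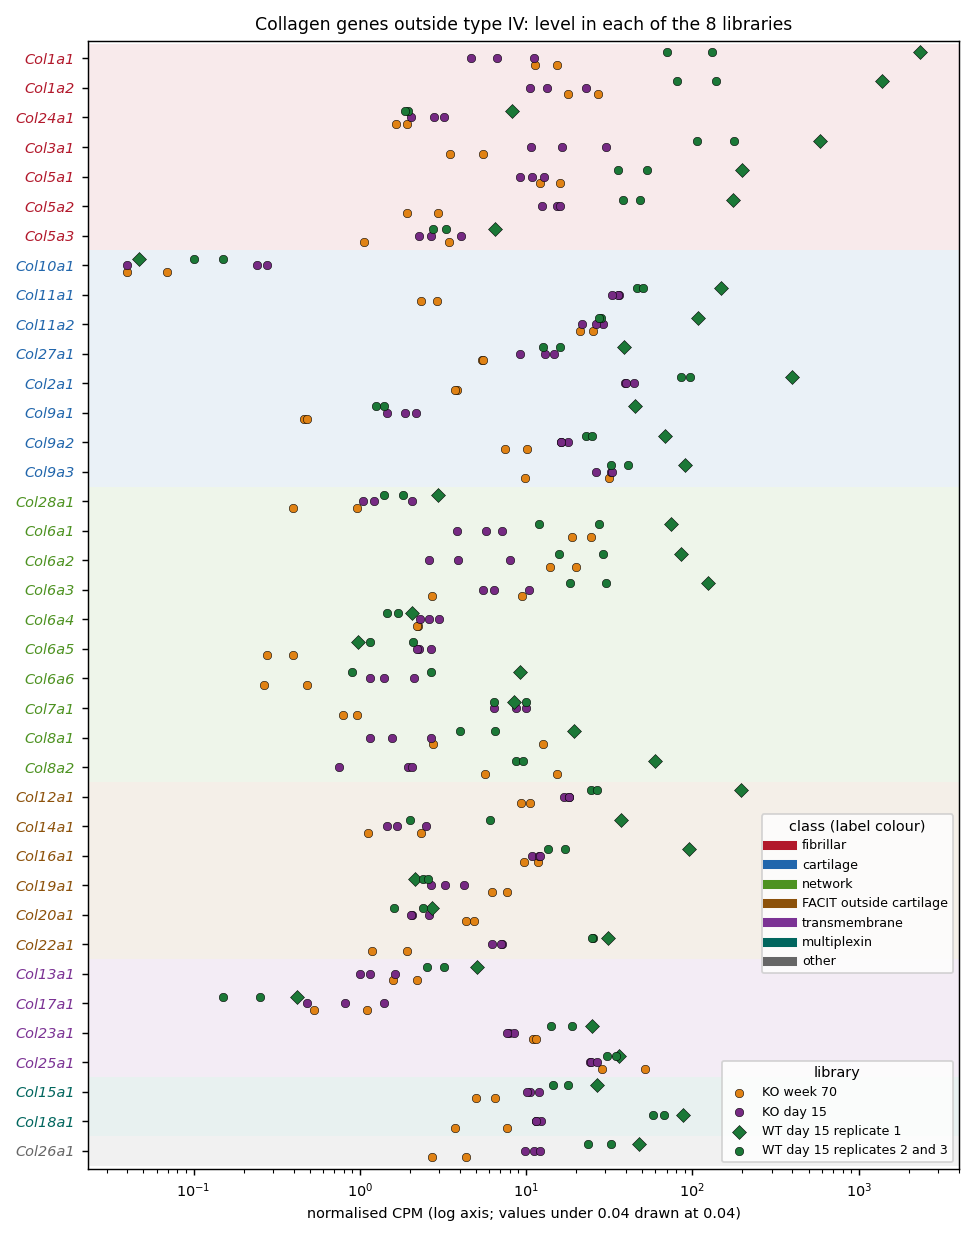
Normalised CPM (horizontal log axis) of each collagen gene in the 8 libraries, by class. Diamonds are WT day 15 replicate 1, which lies highest for all 7 fibrillar genes, while purple KO day 15 points lie below all WT points for 22 of the 36 tested genes.

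The Cav1 knockout was compared with wild type at gestation day 15. Depth and TMM scaling factors (1.02 to 1.03 in WT and 1.17 to 1.18 in KO) differed together with genotype, and their parts cannot be told apart. Most collagen genes were lower in the knockout: 25 of the 36 tested fell and 2 rose, against 32.5% of all tested genes called lower and 30.1% called higher. The genes that fell included the chains of the major fibrils (Col1a1, Col1a2, Col3a1), the type VI beaded filament (Col6a1, Col6a2, Col6a3), the type VIII lattice (Col8a1, Col8a2) and the vascular multiplexin Col18a1. Col6a4 and Col6a5, later-described type VI chains, were the genes that rose. The median log2 fold change of the members was -1.54 against 0.03 for all tested genes. Calls are from edgeR's quasi-likelihood test over all 19147 tested genes, at a Benjamini-Hochberg adjusted p under 0.05. CPM did not overlap between the genotypes for 22 members that were lower and 3 that were higher, against 36.3% and 32.1% of all tested genes.

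Without WT replicate 1, 37 members could be tested, 23 fell and 2 rose, against 31.2% and 27% of all genes tested. All 23 were among the 25 called with the library, and Col9a1 and Col9a3 were the calls lost. Those that rose were Col6a4 and Col17a1, and Col17a1 passed the count filter only through KO libraries. The sizes changed more than the calls: the median over the members was -0.51 without it, against 0.04 for all genes. CPM did not overlap for 22 lower and 6 higher members, against 37.4% and 35.4% of all genes.

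Transcripts of these genes are long and rich in G and C, with a median length of 5626.5 bases and a median GC content of 55.4%, against 2992 bases and 49.2% for all tested genes. With offsets for length and GC content, 15 members fell and 5 rose, against 25.1% and 26% of all genes. With the offsets and without WT replicate 1, 13 fell and 14 rose, against 24.7% and 22.9%, and the median was 0.02. The 13 genes that fell in all 4 of these fits were Col1a1, Col1a2, Col3a1, Col5a1, Col5a2, Col6a1, Col6a2, Col6a3, Col8a1, Col8a2, Col18a1, Col22a1 and Col26a1. No other setting tried with edgeR ended any of these 13 calls. Col6a4 was the gene called higher in all 4. DESeq2 called 21 members lower and 0 higher, against 31.1% and 26% of all genes, with 1 higher at an unadjusted p under 0.05 and no adjusted p for Col1a1 and Col9a1.

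**Figure D2:**
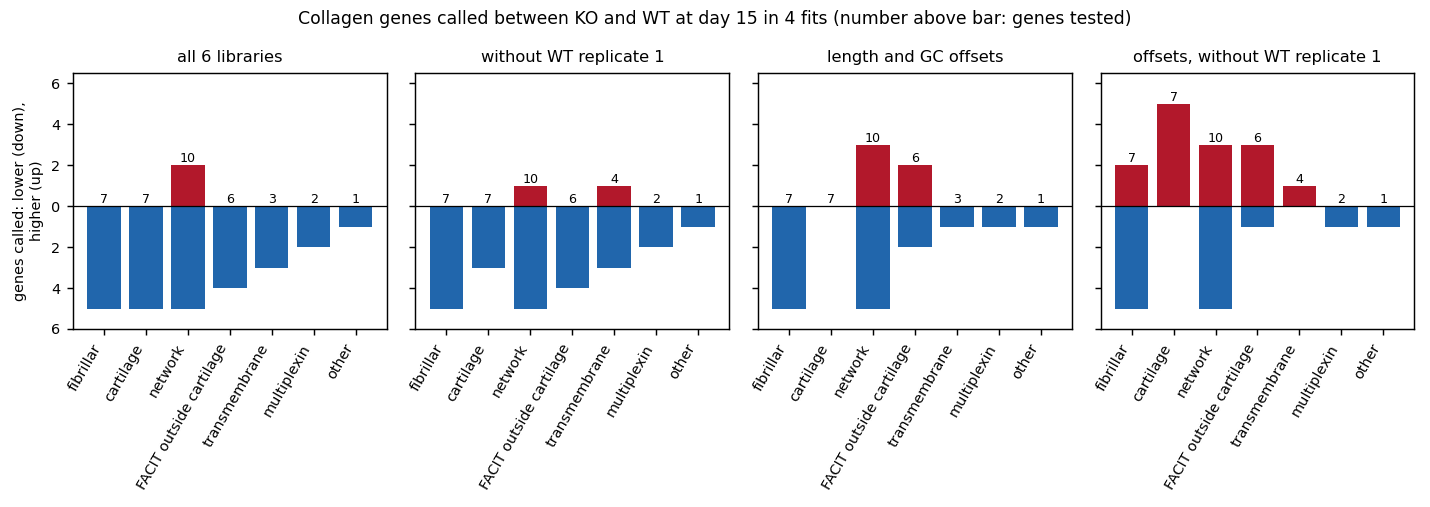
Number of collagen genes called lower (bars down) and higher (bars up) in KO against WT at day 15, by class, in 4 fits, with the number tested above each bar. Fibrillar and network genes have 5 lower calls in every panel, whereas cartilage genes go from 5 lower calls with all libraries to 5 higher calls with the offsets and without WT replicate 1.

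Fibrillar collagens had the lowest class median. Of 7 tested, 5 fell, both with all libraries and without WT replicate 1. The class median was -3.08, or -2.0 when WT replicate 1 was left out. Class counts between the genotypes are read against 32.5% lower and 30.1% higher of all genes. Without WT replicate 1 these shares were 31.2% and 27%. Col1a1, the more abundant chain of type I collagen, was at 2331, 70.3 and 132 CPM in WT replicates 1 to 3 and at 4.66, 11.1 and 6.66 CPM in KO replicates 1 to 3. Its WT values spread 844 ± 1288 (SD, n = 3) because replicate 1 was 23.1 times the mean of the other WT libraries, yet the lowest WT value was above the highest KO value. Its log2 fold change was -6.75 ± 1.30 (SE; adjusted p = 0.00108, edgeR's quasi-likelihood test) and -3.72 ± 0.29 without that library. Col1a2, the partner chain, was at 1378, 81.4 and 139 CPM in WT and at 10.6, 23.0 and 13.4 in KO. The groups again did not overlap, and replicate 1 was 12.5 times the mean of the other WT libraries. The log2 fold change of Col1a2 was -5.03 ± 0.99 (edgeR adjusted p = 0.0012), and -2.79 ± 0.26 without replicate 1.

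Type III collagen, which forms fine reticular fibrils in meninges and vessel walls, behaved likewise. Col3a1 was at 584, 106 and 178 CPM in WT and at 10.7, 30.1 and 16.5 in KO, with no overlap. Its log2 fold change was -3.86 ± 0.60 (edgeR adjusted p = 0.000235), and -2.86 ± 0.30 without WT replicate 1. Type V chains, which nucleate type I fibrils, fell too. Col5a1 was at 199, 35.6 and 53.7 CPM in WT and at 10.9, 12.9 and 9.15 in KO, which gave a log2 fold change of -3.08 ± 0.57 (edgeR adjusted p = 0.000793) and of -2.0 ± 0.17 without replicate 1. Col5a2, which lies next to Col3a1 on chromosome 1, was at 175, 38.1 and 48.3 CPM in WT and at 15.3, 16.1 and 12.4 in KO. All WT values of both type V genes were above all KO values. The log2 fold change of Col5a2 was -2.53 ± 0.50 (edgeR adjusted p = 0.00129), and -1.55 ± 0.13 without replicate 1.

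The remaining fibrillar genes did not pass the test with all libraries or without replicate 1, but both were called higher, at 1.19, with the offsets and without replicate 1. Col5a3 had a log2 fold change of -0.44 ± 0.33 with all libraries and of 0.0042 ± 0.27 without WT replicate 1. Col24a1, a fibrillar collagen of developing bone, was at 8.27, 1.95 and 1.86 CPM in WT and at 3.21, 2.78 and 2.03 in KO. Its high WT value is the replicate 1 value, and its log2 fold change went from -0.55 ± 0.51 to 0.50 ± 0.27 without that library.

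**Figure D3:**
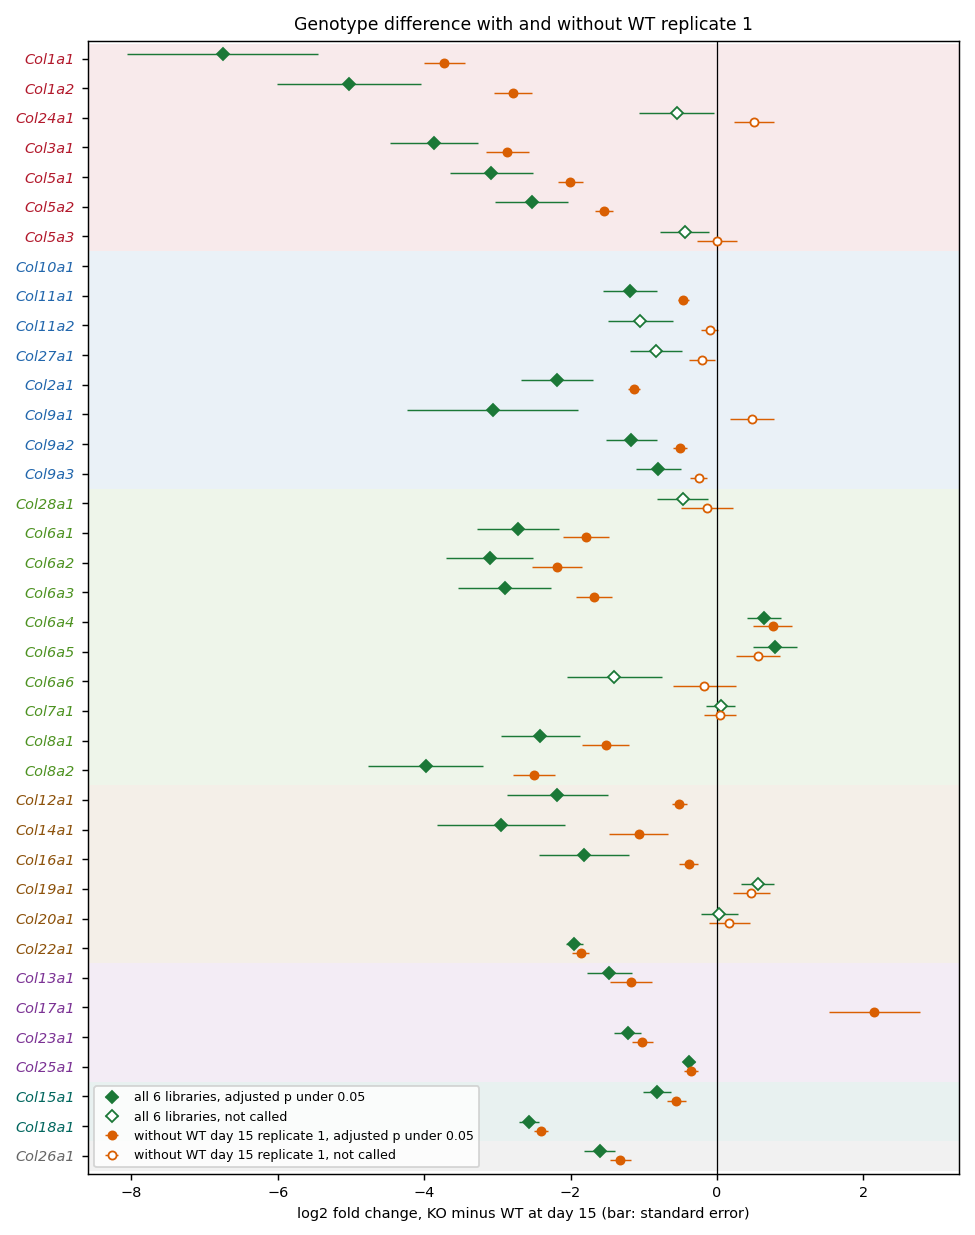
Log2 fold change of KO minus WT at day 15 for each collagen gene (points) with its standard error (bars), with all 6 libraries (diamonds) and without WT replicate 1 (circles); filled symbols passed an adjusted p under 0.05. Col1a1 moves from -6.75 to -3.72 while Col18a1, Col22a1 and Col25a1 keep nearly the same value.

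Summed markers of meninges and vessels were lower in the knockout too, as were those of other cell types. The 14 meningeal and fibroblast markers summed to 162 to 401 CPM in WT and to 99.99 to 157 in KO, all 14 being detected in every library, and the transcription factor gene Foxc1 had 225 to 466 counts in WT but 50 to 64 in KO. Lum and Dcn, small proteoglycans of the same fibroblasts, did not pass the test with all libraries, with log2 fold changes of -0.57 ± 0.64 and 0.16 ± 0.36. Both were highest in WT replicate 1, at 948 and 951 unscaled counts. For Dcn, WT replicates 2 and 3 stood at 280 and 341, below KO replicates 1 to 3 at 346, 615 and 466. Lum was mixed, with 129 and 226 for the same WT replicates against 87, 418 and 205. The 10 pericyte and smooth muscle markers summed to 256 to 327 CPM in WT and 165 to 175 in KO, and the 10 endothelial markers to 219 to 303 in WT and 96.0 to 114 in KO. Not every marker in these lists was lower: Rgs5, a pericyte gene, had 1283 to 1538 counts in WT and 1593 to 1950 in the less deeply sequenced KO libraries. Neuronal markers summed to 6586 to 7254 CPM in WT and 5519 to 5551 in KO, neural progenitor markers to 2054 to 2212 and 1448 to 1588, and oligodendrocyte and astrocyte markers to 200 to 229 and 130 to 146, likewise without overlap. Some markers of these lists went the other way, among them the neural progenitor gene Fabp7 and the neuronal genes Stmn2 and Gap43. Fabp7 had 5293 to 6107 counts in WT and 13329 to 13682 in KO. Stmn2 had 12134 to 13786 and 15285 to 16304, and Gap43 8425 to 8904 and 9071 to 10092. The part of all these cell types in the collagen differences was not tested.

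Of 7 cartilage collagens tested, 5 fell with all libraries and 3 when WT replicate 1 was left out, while the class median went from -1.17 to -0.25. Of all tested genes, 32.5% and 31.2% were called lower in these fits. Col2a1, the main fibril chain of cartilage, which neural progenitors also transcribe, was at 398, 96.9 and 85.7 CPM in WT and at 44.7, 39.3 and 39.8 in KO. All WT values were above all KO values, with or without replicate 1. Its log2 fold change was -2.18 ± 0.50 (edgeR adjusted p = 0.00297), and -1.13 ± 0.08 without replicate 1. Col11a1, its partner in the thin fibril, was at 149, 46.6 and 50.7 CPM in WT and at 36.2, 35.5 and 33.1 in KO, with log2 fold changes of -1.19 ± 0.37 (edgeR adjusted p = 0.0159) and, without replicate 1, -0.46 ± 0.08. Both values were called, and the call with all WT libraries was lost without KO replicate 2 (-1.22) or KO replicate 3 (-1.15) and with the offsets (-0.67). Col11a2 did not pass, at 108, 28.1 and 27.5 CPM in WT and 29.1, 26.2 and 21.7 in KO. Only replicate 1 was apart for Col11a2, and its log2 fold change of -1.05 ± 0.45 became -0.10 ± 0.11 without that library.

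Type IX collagen sits on the surface of cartilage fibrils, and its 3 chains differed from each other. Col9a1 was at 45.0, 1.40 and 1.26 CPM in WT and at 1.88, 2.17 and 1.45 in KO. A single library carried the WT signal, 33.9 times the mean of the other WT libraries, which both lay below all KO libraries. Col9a1 was called lower with all libraries (log2 fold change -3.06 ± 1.17, edgeR adjusted p = 0.0407) and stood at 0.48 ± 0.30 without replicate 1, where it was not called. Col9a2 was at 68.2, 23.1 and 25 CPM in WT and 17.8, 16.2 and 16.2 in KO, with log2 fold changes of -1.17 ± 0.35 and, without replicate 1, -0.51 ± 0.10, both called. Col9a3 was at 90.4, 32.2 and 41.0 CPM in WT and 32.2, 32.7 and 26.2 in KO, and WT replicate 2 lay within the KO range. Its log2 fold change was -0.80 ± 0.30 with all libraries (edgeR adjusted p = 0.0402) and -0.25 ± 0.12, not called, without replicate 1. The calls of Col9a1 and Col9a3 were also lost with upper-quartile scaling (-2.90 and -0.63) and without any of the KO libraries (-2.92 to -3.22 and -0.70 to -0.87). Col27a1, a fibrillar collagen of growth cartilage, did not pass, at -0.84 ± 0.35 and -0.21 ± 0.18. Without WT replicate 2 or 3, which left replicate 1 with more weight, Col11a2 (-1.37 and -1.38) and Col27a1 (-1.13 and -1.04) were called lower as well, and so they were without a filter (-1.14 and -0.93). Col10a1, the marker of hypertrophic cartilage, never exceeded 5 counts and was not tested.

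With the length and GC offsets no cartilage gene of 7 was called by edgeR's quasi-likelihood test, and 2 were lower at an unadjusted p under 0.05. With the offsets and without WT replicate 1, 5 rose (Col9a1, Col9a2, Col9a3, Col11a2, Col27a1), against 22.9% of all genes, and Col2a1 stood at -0.02 ± 0.09. The 12 cartilage markers summed to 219, 91.5 and 85.9 CPM in WT replicates 1 to 3 and to 22.2 to 24.7 in KO, but Sox9, which is also a neural progenitor gene, was at 85.0, 87.3 and 81.5 CPM in WT and 18.4 to 20.8 in KO and made up most of the sum outside replicate 1. Matn1 had 0 counts in all 3 KO day 15 libraries.

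**Figure D4:**
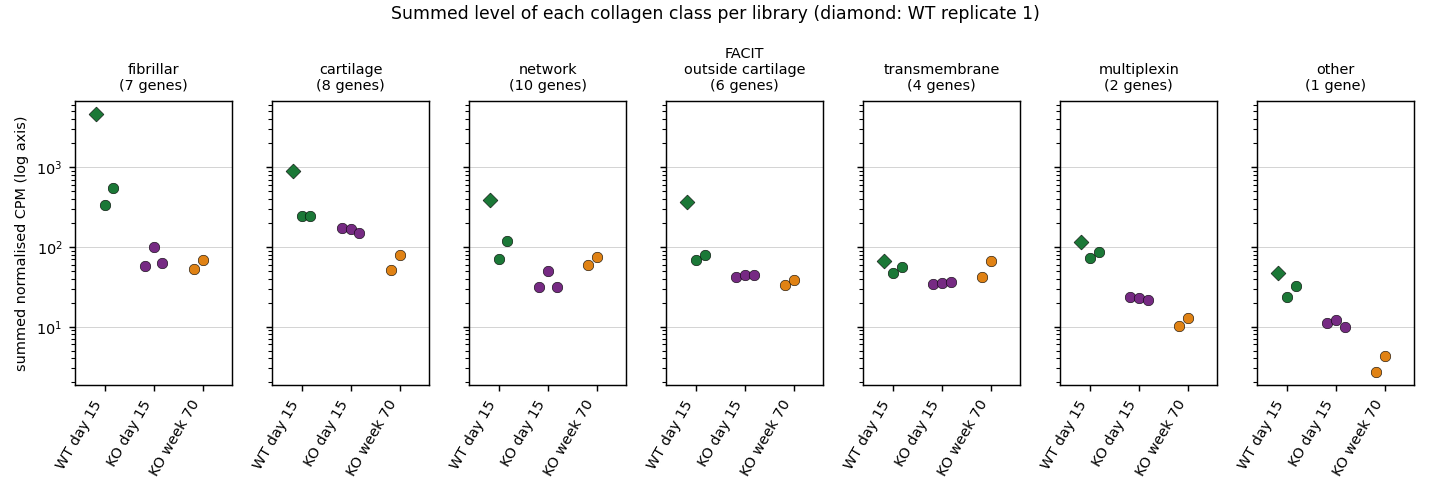
Summed normalised CPM (vertical log axis) of each collagen class in each library, with WT day 15 replicate 1 as diamonds. The fibrillar sum is 4682 CPM in WT replicate 1 against 336 and 555 in the other WT libraries and 58.0 to 100.02 in KO day 15, whereas the transmembrane sum is 47.6 to 66.4 in WT and 34.3 to 36.5 in KO day 15.

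Network collagens split into chains that fell and chains that did not. Of 10 tested, 5 fell and 2 rose with all libraries, and 5 fell and 1 rose without WT replicate 1, with class medians of -1.91 and -0.85. Col6a1, Col6a2 and Col6a3 make the common type VI beaded filament of the pericellular matrix. Col6a1 was at 74.7, 11.9 and 27.4 CPM in WT and at 3.82, 7.17 and 5.73 in KO, which gave a log2 fold change of -2.72 ± 0.56 (edgeR adjusted p = 0.00165) and of -1.79 ± 0.31 without replicate 1. Col6a2 was at 85.1, 15.7 and 29.2 CPM in WT and at 2.6, 8.0 and 3.88 in KO, which gave a log2 fold change of -3.11 ± 0.59 (edgeR adjusted p = 0.000972) and of -2.18 ± 0.35 without replicate 1. Col6a3 was at 124, 18.3 and 30.3 CPM in WT and at 5.51, 10.4 and 6.37 in KO, which gave a log2 fold change of -2.90 ± 0.63 (edgeR adjusted p = 0.00238) and of -1.68 ± 0.25 without it. In all 3 genes every WT library was above every KO library, and KO replicate 2 was the highest KO library.

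Col6a4, Col6a5 and Col6a6 lie side by side on chromosome 9 and encode alternatives to the Col6a3 chain. Col6a4 was at 2.06, 1.70 and 1.46 CPM in WT and at 2.6, 3.0 and 2.32 in KO. The groups did not overlap, and its log2 fold change was 0.64 ± 0.23 (edgeR adjusted p = 0.0304), or 0.76 ± 0.26 without replicate 1. Col6a5 was at 0.981, 2.10 and 1.16 CPM in WT and at 2.66, 2.28 and 2.20 in KO, which gave a log2 fold change of 0.79 ± 0.30 (edgeR adjusted p = 0.0415). WT replicate 1 was the lowest library for Col6a5, and the gene was not called without it, at 0.56 ± 0.31. The Col6a4 call was lost without WT replicate 2 or 3 or KO replicate 1 or 2 (0.52 to 0.64), and the Col6a5 call without WT replicate 3 or any KO library (0.66 to 0.85). Both calls were lost with DESeq2, without a filter and with all 8 libraries in 1 fit. Col6a6 was not called, at -1.40 ± 0.65 and -0.17 ± 0.43, but was called lower without WT replicate 2 (-1.89) and without a filter (-1.49).

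Type VIII collagen forms hexagonal lattices under endothelia and in meninges. Col8a1 was at 19.3, 3.99 and 6.53 CPM in WT and at 1.15, 2.67 and 1.56 in KO, with log2 fold changes of -2.41 ± 0.54 (edgeR adjusted p = 0.00277) and -1.52 ± 0.33 without replicate 1. Col8a2 fell most of the network genes, from 59.3, 8.68 and 9.55 CPM in WT to 1.94, 2.06 and 0.753 in KO. Neither gene overlapped between the genotypes. For Col8a2 the log2 fold change was -3.98 ± 0.79 (edgeR adjusted p = 0.00124) and -2.50 ± 0.29 without replicate 1. Col7a1, the anchoring fibril of stratified epithelia, was level between the groups at 8.30 ± 1.81 CPM (SD, n = 3) in WT and 8.37 ± 1.79 (n = 3) in KO (log2 fold change 0.05 ± 0.20), but was called higher with the offsets, at 1.34 both with all libraries and without WT replicate 1. Col28a1, a collagen of peripheral nerve, was not called, at -0.47 ± 0.35.

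The other FACIT genes, which encode fibril-associated collagens with interrupted helices, fell in 4 of 6 cases with all libraries and in the same 4 without WT replicate 1, with class medians of -1.88 and -0.45. Col22a1, a collagen of tissue junctions, was at 31.0, 25.4 and 24.9 CPM in WT and at 7.15, 7.06 and 6.25 in KO, far apart and tight within each group, with log2 fold changes of -1.95 ± 0.12 (edgeR adjusted p = 2.29e-07) and -1.86 ± 0.11 without replicate 1. Col12a1, which binds type I fibrils, was at 197, 24.5 and 26.6 CPM in WT and at 16.8, 18.1 and 18.1 in KO, and its log2 fold change went from -2.18 ± 0.69 to -0.51 ± 0.10 without replicate 1. Col14a1, another binder of type I fibrils, was at 37.3, 2.00 and 6.03 CPM in WT and at 1.45, 2.50 and 1.68 in KO, with overlap, and its log2 fold change went from -2.95 ± 0.87 to -1.07 ± 0.40. WT replicate 1 stood far above the others in both genes. Leaving out any KO library ended the Col12a1 call (-2.15 to -2.21), and leaving out KO replicate 3 the Col14a1 call (-2.87). Col16a1, a FACIT of fibroblasts and smooth muscle, went from -1.81 ± 0.62 to -0.39 ± 0.13 without replicate 1, called both times, and to 0.71 ± 0.14, called higher, when the offsets were added. Its call with all WT libraries was lost without any of the KO libraries (-1.77 to -1.85). Col19a1, made by neurons, and Col20a1 were not called, at 0.56 ± 0.23 and 0.03 ± 0.25, in the fit with all libraries. Col19a1 was called higher with upper-quartile scaling (0.73), with a filter at a mean of 10 counts (0.57) and without KO replicate 2 (0.69). With the offsets both were called higher, at 0.87 and 0.84, and so they were without WT replicate 1 as well, at 0.77 and 0.96.

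The 3 transmembrane collagens that were tested with all libraries fell, and each was also called when WT replicate 1 was left out. Col25a1, a neuronal collagen needed for motor innervation of muscle, was at 36.2, 30.8 and 34.5 CPM in WT and at 24.3, 24.7 and 26.9 in KO. The groups did not overlap, WT replicate 1 was close to the other WT libraries, and the log2 fold change was -0.38 ± 0.08 (edgeR adjusted p = 0.00259) and -0.35 ± 0.09 without it. Upper-quartile scaling, which moved the median of all genes from 0.03 to 0.20, left Col25a1 at -0.21, not called. Col23a1 was at 24.8, 14.0 and 18.8 CPM in WT and at 7.87, 8.50 and 7.64 in KO, which gave a log2 fold change of -1.22 ± 0.18 (edgeR adjusted p = 0.00017) and of -1.02 ± 0.15 without replicate 1. Col13a1, a collagen of the neuromuscular junction, was at 5.05, 2.55 and 3.22 CPM in WT and at 1.64, 1.00 and 1.16 in KO, which gave a log2 fold change of -1.47 ± 0.31 (edgeR adjusted p = 0.0017) and of -1.17 ± 0.29 without replicate 1. With the offsets, Col13a1 alone remained called, and with the offsets and without replicate 1 none of these 3 was.

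Col17a1, the hemidesmosome collagen of skin, had at most 25 counts in the fetal libraries and did not pass the count filter with all 6 of them. It was tested with other filters, with all 8 libraries in 1 fit and whenever a library was left out. When a fetal library was left out, only KO day 15 libraries reached the count that the filter asks for. Col17a1 thus entered those tests through the group where it was higher, and its calls there rest partly on the filter. Without WT replicate 1 it was called higher at a log2 fold change of 2.15 ± 0.62, and in the other fits it was called higher at 1.64 to 3.03, except without WT replicate 2 (1.43) and without KO replicate 2 (1.24), where it was not called. Its counts were 9, 3 and 5 in the WT libraries and 8, 25 and 14 in the KO libraries. KO replicate 2, which had the most, also had the highest sum of the 10 skin markers, 91.0 CPM, against 22.7 and 41.1 in the other KO libraries and 29.6 to 42.6 in WT. Krtdap, a keratinocyte gene, had 408 and 113 counts in KO replicates 2 and 3 and 0 to 4 in the other fetal libraries. The part of skin RNA in the Col17a1 value was not tested.

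The multiplexins are basement membrane proteoglycans of vessels, and both fell. Col18a1, the precursor of endostatin, was at 88.4, 58.3 and 67.7 CPM in WT and at 11.4, 12.3 and 11.4 in KO. Every WT library was several times every KO library, and the log2 fold change was -2.57 ± 0.14 (edgeR adjusted p = 1.18e-07), -2.41 ± 0.10 without replicate 1 and -1.45 ± 0.12 with the offsets. Col15a1, from capillary basement membranes, was at 26.7, 14.6 and 17.8 CPM in WT and at 11.9, 10.5 and 10.2 in KO. It was lower without overlap (log2 fold change -0.82 ± 0.19, edgeR adjusted p = 0.0035; -0.56 ± 0.13 without replicate 1) and stood at 0.02 ± 0.17 with the offsets. Col26a1, first known from testis and ovary, was at 47.7, 23.7 and 32.2 CPM in WT and at 11.1, 12.2 and 9.79 in KO. Its log2 fold change was -1.60 ± 0.21 (edgeR adjusted p = 7.87e-05), and -1.32 ± 0.14 without replicate 1.

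The ratio between the chains of a type differed between the genotypes for some types. Per kilobase of transcript, the Col1a1 to Col1a2 ratio of CPM was 1.53 in WT replicate 1 and 0.78 and 0.86 in the other WT libraries, and it was 0.40, 0.44 and 0.45 in KO. No KO library reached a WT value. The Col9a1 to Col9a2 ratio was 0.50 in WT replicate 1 and 0.04 to 0.10 in the other 5 fetal libraries. The Col5a1 to Col5a2 ratio was 0.74 to 0.90 in WT and 0.56 to 0.63 in KO, without overlap. These ratios do not use the length and GC offsets. With the offsets the log2 fold changes of Col5a1 and Col5a2 were nearly equal, at -1.95 and -1.94. Without WT replicate 1 as well they were -0.89 and -0.97. For Col1a1 and Col1a2 they were -5.67 and -4.18 with the offsets, and -2.68 and -1.98 without WT replicate 1 as well. The Col6a1 to Col6a2 ratio was 0.91 to 1.13 in WT and 1.76, 1.07 and 1.77 in KO. The Col8a2 to Col8a1 ratio was 1.72 to 3.63 in WT and 0.57 to 1.99 in KO, with overlap. The ratio of Col6a3 to Col6a1 was 0.45 to 0.68 in WT and 0.45 to 0.59 in KO, and that of Col11a1 to Col11a2 was 1.09 to 1.46 in WT and 0.98 to 1.20 in KO. On the same per-kilobase scale, the highest levels in WT replicates 2 and 3 were those of Col3a1 (mean 25.5 CPM per kilobase), Col1a2 (20.6), Col2a1 (17.9) and Col1a1 (17.0). In KO day 15 they were those of Col9a3 (9.98), Col2a1 (8.08) and Col9a2 (5.72), and Col1a1 was at 1.26.

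Of 20 genes of chain modification and folding, 14 fell and 1 rose in the knockout, and the lists that follow are read against the same 32.5% lower and 30.1% higher of all genes. Serpinh1, the collagen chaperone, was at 303, 129 and 158 CPM in WT and at 34.8, 33.8 and 29.0 in KO, which gave a log2 fold change of -2.55 ± 0.27 (edgeR adjusted p = 1.28e-05) and of -2.12 ± 0.10 without WT replicate 1. Plod1, a lysyl hydroxylase, fell by 2.07 ± 0.13 and Fkbp10, a prolyl isomerase, fell by 2.38 ± 0.37 on the log2 scale, while the lysyl hydroxylase gene Plod2 was not called at 0.04 ± 0.11. Of 12 genes of processing and cross-linking, 9 fell. Lox, which cross-links fibrils, went from 57.2, 8.63 and 16.6 CPM in WT to 3.45, 7.83 and 6.31 in KO.

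Of 11 tested collagen-binding matrix genes 6 fell, among them Sparc (-2.47 ± 0.34) and Bgn (-2.78 ± 0.42). Of 10 tested receptor genes 7 fell. Adgrg1, the neural progenitor receptor for type III collagen, was at 279, 292 and 274 CPM in WT and at 95.1, 80.6 and 79.3 in KO, and Ddr1 was at 232, 235 and 222 in WT and at 72.1, 63.3 and 57.4 in KO. WT replicate 1 did not stand apart for either receptor, and their log2 fold changes were -1.69 ± 0.08 and -1.80 ± 0.08. Itgb1, the common beta subunit of collagen integrins, was not called at -0.16 ± 0.09. Of 7 tested genes of turnover 5 fell, including Mmp2 (-2.60 ± 0.46) and Mmp14 (-1.73 ± 0.16). Of 10 tested transcription factor genes of collagen-making cells 8 fell, including Sox9, which drives Col2a1 (-2.09 ± 0.07), and Foxc1 (-2.19 ± 0.24). The medians of these 6 lists lay between -1.74 and -0.77, against 0.03 for all tested genes. Without WT replicate 1, where 31.2% of all genes fell and 27% rose, 11 fell and 2 rose for modification and folding, 9 and 0 for processing, 5 and 4 for matrix binding, 7 and 0 for receptors, 5 and 1 for turnover, and 6 and 0 for transcription factors. With the offsets as well, against 24.7% and 22.9%, 8 fell and 5 rose for modification and folding, 4 and 2 for processing, 5 and 1 for matrix binding, 6 and 1 for receptors, 5 and 0 for turnover, and 6 and 1 for transcription factors. The medians in that fit lay between -0.75 and 0.05.

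Age was compared within the knockout, between 2 week 70 and 3 fetal brains. Of the cartilage collagens 5 of 7 were lower at week 70, as were both multiplexins, while 2 chains of type VI and both chains of type VIII collagen were higher. Of 37 tested members 15 fell and 8 rose, against 44.4% and 37.6% of all 20000 tested genes, with a median log2 fold change of -0.52 against -0.19. The numbers are those of edgeR's quasi-likelihood test. With upper-quartile scaling 20 fell and 6 rose, against 49.8% and 32.4%, and the median of all genes was -0.44. With the length and GC offsets 24 fell and 6 rose, against 39.2% and 39.6%. The ages were free of CPM overlap for 18 lower and 9 higher members, against 45.6% and 42.3%. This comparison uses the same KO day 15 libraries as the genotype comparison, so the 2 sets of values are not independent. Age, sex markers and cell composition differ together here: oligodendrocyte and astrocyte markers summed to 130 to 146 CPM in KO day 15 and to 15733 to 15735 at week 70. These cannot be told apart.

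**Figure D5:**
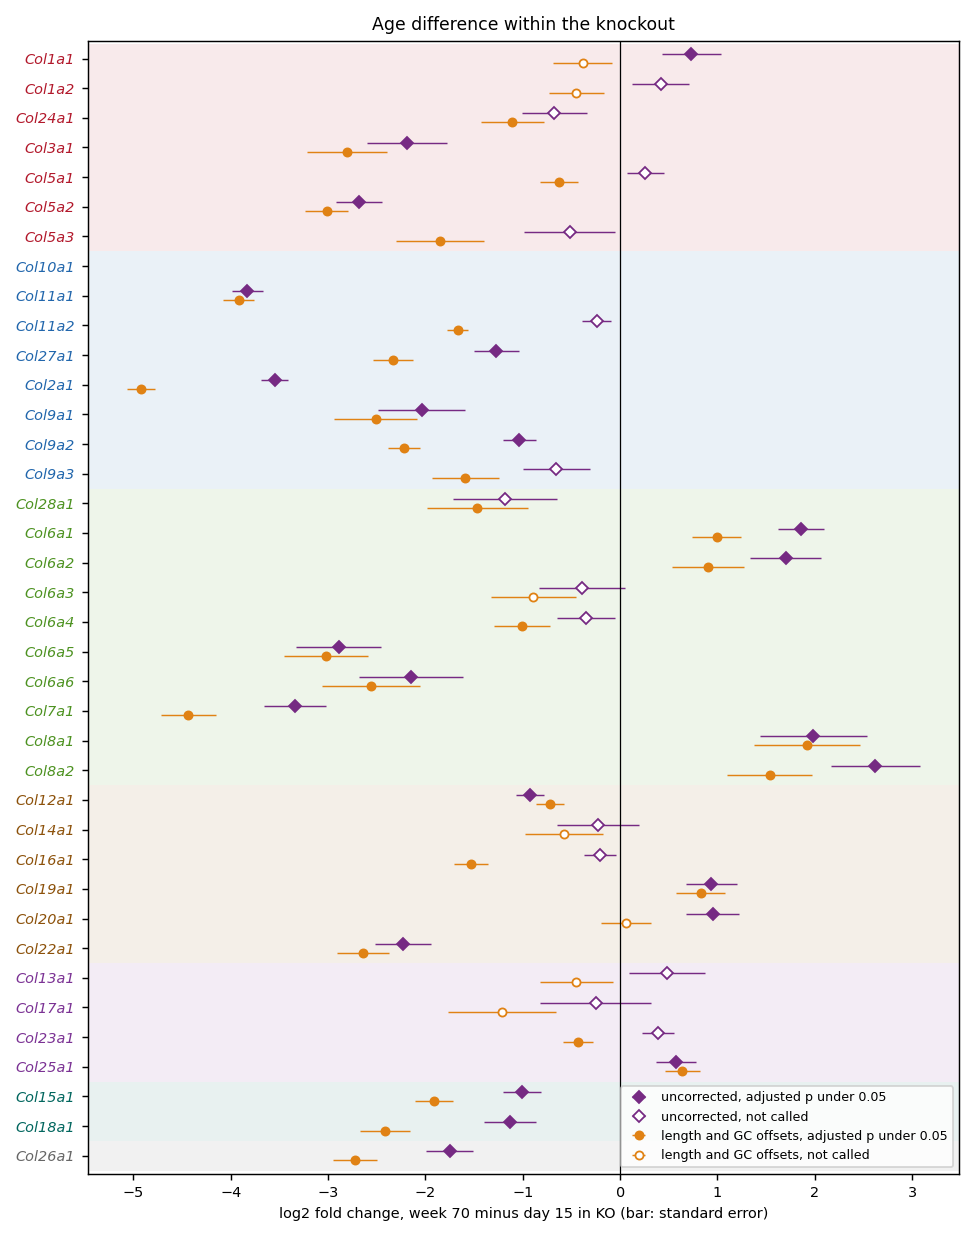
Log2 fold change of KO week 70 minus KO day 15 for each collagen gene (points) with its standard error (bars), without correction (diamonds) and with length and GC offsets (circles); filled symbols passed an adjusted p under 0.05. Col11a1, Col2a1 and Col7a1 lie lowest without correction and Col8a2 highest, at 2.62.

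Of 7 tested cartilage genes 5 fell with age, against 44.4% of all genes. Col2a1 was at 44.7, 39.3 and 39.8 CPM in KO day 15 and at 3.82 and 3.72 at week 70, a log2 fold change of -3.55 ± 0.14 (edgeR adjusted p = 3.26e-09). Col11a1 went from 36.2, 35.5 and 33.1 to 2.90 and 2.34 CPM, a log2 fold change of -3.83 ± 0.16 (edgeR adjusted p = 4.3e-09), whereas its partner chain Col11a2 was at 29.1, 26.2 and 21.7 and then at 21.2 and 25.4 CPM and was not called (-0.24 ± 0.15). Col11a2 was called lower with upper-quartile scaling (-0.49), with the offsets (-1.67), and without KO day 15 replicate 3 or week 70 replicate 2 (-0.35 and -0.38). The per-kilobase ratio of Col11a1 to Col11a2 was 0.98 to 1.20 in the fetal and 0.07 to 0.11 in the week 70 knockout libraries. Col9a3 was at 9.89 and 31.6 CPM in the 2 week 70 libraries, the first below and the second within the fetal range of 26.2 to 32.7, and was not called. It was called lower without the second (-1.72), with upper-quartile scaling (-0.91), without a filter (-0.67) and with the offsets (-1.59), where all 7 cartilage genes were called lower.

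Of 7 fibrillar genes 2 fell and 1 rose with age, against 44.4% and 37.6% of all genes. With the offsets all 7 lay below 0 and 5 fell, against 39.2% of all genes. Col3a1 fell from 10.7, 30.1 and 16.5 to 3.49 and 5.51 CPM (log2 fold change -2.19 ± 0.41, edgeR adjusted p = 0.000575), and Col5a2 from 15.3, 16.1 and 12.4 to 1.91 and 2.96 CPM (-2.68 ± 0.24, edgeR adjusted p = 1.92e-06). Col1a1 was at 4.66, 11.1 and 6.66 and then at 11.3 and 15.4 CPM, called higher at 0.73 ± 0.31. The call was lost with RLE or upper-quartile scaling (0.70 and 0.48), with a filter at a mean of 10 counts (0.70) and with DESeq2 (0.70). It was also lost with all 8 libraries in 1 fit (0.83), with the offsets (-0.38 ± 0.30) and without KO day 15 replicate 1 or 3 (0.49 and 0.66). Without week 70 replicate 2 the log2 fold change of Col1a1 was 0.49. Col5a1 was at 10.9, 12.9 and 9.15 and then at 16.0 and 12.1 CPM, with overlap, and was not called. It was called lower with the offsets (-0.63) and higher without week 70 replicate 2 (0.45). The per-kilobase ratio of Col5a1 to Col5a2 was 0.56 to 0.63 in the fetal and 6.60 and 3.23 in the week 70 knockout libraries.

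Of 10 tested network genes 4 rose and 3 fell, shares near the 37.6% and 44.4% of all genes. Col6a1 rose from 3.82, 7.17 and 5.73 to 24.5 and 18.9 CPM (log2 fold change 1.85 ± 0.24, edgeR adjusted p = 3.28e-05), and Col6a2 from 2.6, 8.0 and 3.88 to 19.9 and 14.0 CPM (1.70 ± 0.36, edgeR adjusted p = 0.00134). The ages did not overlap in either gene, whereas Col6a3 was at 2.70 and 9.51 CPM and was not called (-0.39 ± 0.45), though it was called lower without week 70 replicate 2 (-1.56). The per-kilobase ratio of Col6a3 to Col6a1 was 0.45 to 0.59 in the fetal and 0.04 and 0.20 in the week 70 knockout libraries. Col8a2 rose from 1.94, 2.06 and 0.753 to 5.67 and 15.3 CPM (2.62 ± 0.46, edgeR adjusted p = 0.00035). Col8a1 rose from 1.15, 2.67 and 1.56 to 2.77 and 12.6 CPM (1.98 ± 0.55, edgeR adjusted p = 0.00664), and without the higher library, week 70 replicate 2, it was not called (0.52). Col7a1 fell from 8.72, 9.95 and 6.43 to 0.791 and 0.965 CPM (-3.34 ± 0.32, edgeR adjusted p = 3.21e-06), and Col6a5 from 2.66, 2.28 and 2.20 to 0.396 and 0.276 CPM (-2.89 ± 0.44, edgeR adjusted p = 0.000128).

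Among the FACIT genes Col19a1 rose from 3.27, 2.67 and 4.23 to 6.20 and 7.72 CPM (0.94 ± 0.26, edgeR adjusted p = 0.00701), and Col22a1 fell from 7.15, 7.06 and 6.25 to 1.19 and 1.93 CPM (-2.23 ± 0.29, edgeR adjusted p = 3.53e-05). Of 4 tested transmembrane genes Col25a1 rose, from 24.3, 24.7 and 26.9 to 28.5 and 52.3 CPM (0.57 ± 0.20, edgeR adjusted p = 0.023), and none fell by edgeR's test, nor at an unadjusted p under 0.05. With the offsets Col23a1 was called lower (-0.43), and without week 70 replicate 1 it was called higher (0.43). Col25a1 was not called with upper-quartile scaling, without KO day 15 replicate 1 or 3 (0.54 and 0.62) or without week 70 replicate 2 (0.08). Col18a1 fell further, to 3.76 and 7.72 CPM (-1.13 ± 0.27, edgeR adjusted p = 0.00246), as did Col15a1 (-1.01 ± 0.19) and Col26a1 (-1.75 ± 0.24). On the per-kilobase scale the highest mean levels at week 70 were those of Col9a3 (6.81 CPM per kilobase), Col25a1 (6.03) and Col6a1 (5.29). The rank of Col9a3 rests on week 70 replicate 2, since in replicate 1 it was below Col6a1 and Col25a1 on this scale.

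Of the 20 genes of modification and folding 10 rose and 7 fell with age, against 37.6% and 44.4% of all genes. Plod1 rose from 5.33, 5.50 and 5.15 to 24.3 and 27.0 CPM, and Plod2 fell from 24.2, 28.4 and 25.3 to 4.42 and 5.31 CPM. Serpinh1 was not called, at 34.8, 33.8 and 29.0 and then 26.2 and 34 CPM. Of 12 tested collagen-binding matrix genes 6 rose and 2 fell. Sparc rose from 48.0, 50.3 and 36.8 to 451 and 627 CPM, a log2 fold change of 3.48 ± 0.16 (edgeR adjusted p = 1.04e-08), and Fmod, fibromodulin, from 1.33, 0.889 and 1.27 to 28.8 and 26.5 CPM. In the same list, Postn had 242, 609 and 278 counts in KO day 15 and 38 and 49 at week 70, and Lum 87, 418 and 205 and then 47 and 72.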

How the data were processed

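RNA was measured in 8 whole-brain libraries, and the authors deposited 1 table of read counts per gene, whole numbers that are not normalized. FastQC, cutadapt, Trimmomatic, HISAT2, featureCounts and edgeR, and the builds GRCm38 and GRCm39, are named in the submitters' processing notes. Their settings, the annotation, strand use and which build the counts come from are not given in the sources used here. Gene positions, lengths and GC content are from GENCODE M21 on GRCm38, and promoters from RefSeq on GRCm38.p6.

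Group comparisons used edgeR 4.0.16 in R 4.3.3 (filterByExpr, TMM scaling, glmQLFit and glmQLFTest, two-sided) on the whole table, including 351 genes with an identifier but no name. p-values were adjusted by Benjamini-Hochberg over all tested genes, with a threshold of 0.05. They set the group difference against the spread between these libraries, and the labels do not say what separates the week 70 replicates. SE is the absolute log2 fold change divided by the square root of F. Levels are counts scaled to 1000000 after TMM correction (CPM). Length and GC offsets were smooths (mgcv 1.9.3) of each library's deviation from the mean of a gene, where 97.3% of genes had both values. Both designs were tested on simulated data, in which 200 genes were changed by a log2 fold change of 1 up or down. For the genotype design edgeR recovered 68.5% of them and 9.87% of its calls were false, against 70.5% and 18.0% for DESeq2. For the age design the values were 63.5% and 14.8% for edgeR, and 62.5% and 14.4% for DESeq2. The shares of false calls were thus above the threshold of 0.05.

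Every gene matching the name rule may be named. The genes, the class, pathway and marker lists and the motifs were chosen with earlier results of these data known, so counts over them are descriptions. Alternatives were other scalings, filters, DESeq2 1.42.0, all libraries in 1 fit, a replicate block, the offsets and leaving out each library. Replicates differed by more than sampling noise, so none was merged.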

Additional observations from a re-analysis of the deposited data

How the results depend on the processing

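Depth, 14110031 to 20833397 counts a library, leaves 3 counts as 0.144 to 0.213 unscaled CPM, so Col10a1 and Col17a1 could hardly be measured. Between the genotypes, 25 collagen genes were lower and 2 higher. The number lower was 15 with the offsets for length and GC content, 13 with the offsets and without WT day 15 replicate 1, and 19 to 28 when each library was left out in turn. The number higher was 1 without a filter, 4 with a filter at a mean of 10 counts, 1 with all 8 libraries in 1 fit, 5 with the offsets, 14 with the offsets and without WT replicate 1, and 1 to 2 when each library was left out. DESeq2 called 21 lower and 0 higher, with 1 higher at an unadjusted p under 0.05, against 3 at an unadjusted p in edgeR, and gave no adjusted p for Col1a1 and Col9a1. Within the knockout, 15 were lower and 8 higher at week 70. The number lower was 24 with the offsets and 15 to 20 when each library was left out, and the number higher was 6 to 10 when each was left out.

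Same-numbered WT and KO libraries deviated apart (correlations -0.14, -0.17 and -0.15), and differently numbered ones had correlations of 0.06 to 0.09. Deviations were taken from group means, so these values depend on each other. They cannot settle whether the numbers pair the samples. With the replicate block 23 genes were lower and 1 higher between genotypes, and 16 lower and 7 higher between ages. With the block and the offsets together, 14 were lower and 5 higher between genotypes and 5 were higher between ages.

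No collagen gene changed direction under RLE or upper-quartile scaling or with DESeq2 in either comparison. Changes of direction between the genotypes, as log2 fold changes, were as follows, and the cause was not tested. With the offsets Col24a1 was at 0.15, Col5a3 at 0.75, Col11a2 at 0.20, Col27a1 at 0.34 and Col15a1 at 0.024. With the offsets and the block together these genes were at 0.43, 0.80, 0.46, 0.46 and 0.054. Without WT replicate 1 Col24a1 was at 0.50, Col5a3 at 0.0042 and Col9a1 at 0.48, the highest of their values when each library was left out, whose lowest were -0.90, -0.74 and -3.62. With the offsets and without WT replicate 1 Col24a1 and Col5a3 were at 1.19, Col11a1 at 0.052, Col11a2 at 1.14, Col27a1 at 0.95, Col9a1 at 0.89, Col9a2 at 0.31 and Col9a3 at 0.41. In the same fit Col28a1 was at 0.17, Col6a6 at 0.64, Col12a1 at 0.023, Col16a1 at 0.71 and Col15a1 at 0.26. Col7a1 and Col20a1 lay near 0 and were at -0.039 and -0.060 without a filter, and ranged from -0.11 to 0.21 and from -0.17 to 0.17 when each library was left out, but both were called higher with the offsets, at 1.34 and 0.84, and with the offsets and without WT replicate 1, at 1.34 and 0.96. Col20a1 was at -0.0091 with all libraries in 1 fit.

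Between the ages, the offsets turned Col1a1 to -0.38, Col1a2 to -0.45, Col5a1 to -0.63, Col13a1 to -0.45 and Col23a1 to -0.43. With the block added they were at -0.30, -0.44, -0.71, -0.43 and -0.42. When each library was left out Col5a3 ranged from -1.60 to 0.11, Col6a3 from -1.56 to 0.26, Col14a1 from -0.84 to 0.23 and Col17a1 from -0.86 to 0.22, with values above 0 for all 4 without week 70 replicate 1 and for Col14a1 and Col17a1 also without KO day 15 replicate 2.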
